A study of Mus musculus with 5 samples.

Results

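The 49 genes described here carry out or control the burning of fatty acids in the liver. They were chosen by name, as all probes on the array that measure RNA and whose gene name is one of the listed targets of the nuclear receptor PPAR alpha or enzymes of fatty acid oxidation. All 49 names were found among the 36870 gene names of the array, with 81 probes. By role they are 4 regulators, 8 genes of uptake and activation, 7 of the carnitine shuttle, 13 of mitochondrial beta-oxidation, 7 of peroxisomal steps, 4 acyl-CoA thioesterases, 3 of omega-oxidation and 3 other targets.

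RNA came from livers of female BALB/c mice aged 6 weeks, killed 6 hr after intraperitoneal dosing, in a study that the series' title ties to liver injury by troglitazone. Of the 5 groups, 1 received vehicle, and the others received 300 mg/kg of either troglitazone (TGZ) or rosiglitazone (RGZ), alone or together with 700 mg/kg of buthionine sulfoximine (BSO). Both compounds belong to the thiazolidinediones, known as activators of PPAR gamma. They share that head group, while TGZ ends in a vitamin E-like chroman and RGZ in a pyridine ring. BSO blocks the synthesis of glutathione. No group received BSO alone, so what BSO does without a thiazolidinedione was not measured. The RNA of 6 animals was pooled in each group and put on 1 single-colour Agilent array, so there are no replicates and differences between groups were not tested.

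Fatty acids enter the hepatocyte through transport proteins and are tied to coenzyme A by acyl-CoA synthetases. Long chains cross into mitochondria as carnitine esters and are shortened there by rounds of beta-oxidation. Peroxisomes shorten the chains that mitochondria handle poorly, and cytochromes of the Cyp4a family oxidise the far end of the chain. PPAR alpha, a receptor for fatty acids, pairs with RXR and switches on genes of all these steps in fasting, when the liver depends on fat.

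PPAR and RXR bind DR1, a direct repeat of the half-site AGGTCA with 1 free base between the copies. The RefSeq table (GRCm38.p6) held windows from 250 bases before to 50 bases after the start site for 40 of the 49 genes, 45 windows in all. Both strands were searched, and 2 mismatches were allowed among the 12 letters of both copies. A match was found in 6 of 45 windows (13.3%), against 3.86% of 32851 windows of all genes. With 1 mismatch the shares were 2.22% and 0.554%. A match describes these letters and is no proof of binding. The windows with a match upstream of the start site are shown because they span the behaviours described below, with the DR1 letters in capitals and the gene's own strand from 5′ to 3′.
Fabp1: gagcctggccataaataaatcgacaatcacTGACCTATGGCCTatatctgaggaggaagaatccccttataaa
Ucp3: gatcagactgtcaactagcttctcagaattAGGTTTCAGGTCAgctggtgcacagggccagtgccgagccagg
Acot4: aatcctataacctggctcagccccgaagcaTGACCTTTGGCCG
Creb3l3: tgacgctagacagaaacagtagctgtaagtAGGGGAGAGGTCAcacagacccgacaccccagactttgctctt
Etfa: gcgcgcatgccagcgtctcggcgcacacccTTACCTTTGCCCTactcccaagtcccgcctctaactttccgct

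The Fabp1 stretch lies at chr6:71199782-71199854 on the plus strand, with the motif on the opposite strand at -67 to -55 from the start site and 1 mismatch. The other 4 had 2 mismatches each. Ucp3 is at chr7:100472910-100472982 (plus strand, motif at -51 to -39), Acot4 at chr12:84038336-84038378 (plus strand, motif at -13 to -1), Creb3l3 at chr10:81092758-81092830 (minus strand, motif at -209 to -197) and Etfa at chr9:55512278-55512350 (minus strand, motif at -77 to -65). The strands in brackets are those of the genes. In Acot4 and Etfa the motif lies on the opposite strand, as in Fabp1, so the capitals there read as its reverse complement. In Ucp3 and Creb3l3 it lies on the gene's own strand. Slc25a20 had its match after the start site. The cAMP response element TGACGTCA was in 0 of 45 windows, against 1.79% of all windows. No window was used for Cyp4a14, Hsd17b4, Ppargc1b, Decr1, Cpt1b, Acaa2, Cyp4a10, Crat and Vnn1. The genes with a match did not share a pattern on the arrays. Against vehicle, Ucp3 was higher and Acot4 lower with TGZ, while Fabp1, Creb3l3 and Etfa stayed under 1.5-fold in all 4 treated groups.

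Values are given below as scaled signal, the background-corrected brightness of a probe divided by the 75th percentile of its array, in the order vehicle, TGZ, BSO plus TGZ, RGZ and BSO plus RGZ. They can be compared between groups for 1 gene but not between genes. Differences between groups are log2 ratios or folds, and a gene is counted as called from 2-fold. The intervals beside folds are 95% intervals of spot measurement error alone, with a median SD of 0.204 on the log2 scale, and leave out differences between animals. On each of the 5 arrays all 49 genes were well above background, so no difference is a bound, and so were all 8 hepatocyte markers, among them Alb. The 4 comparisons with vehicle share its single array. Changes in the amount of a cell type and in RNA per cell cannot be told apart in whole liver.

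**Figure D1:**
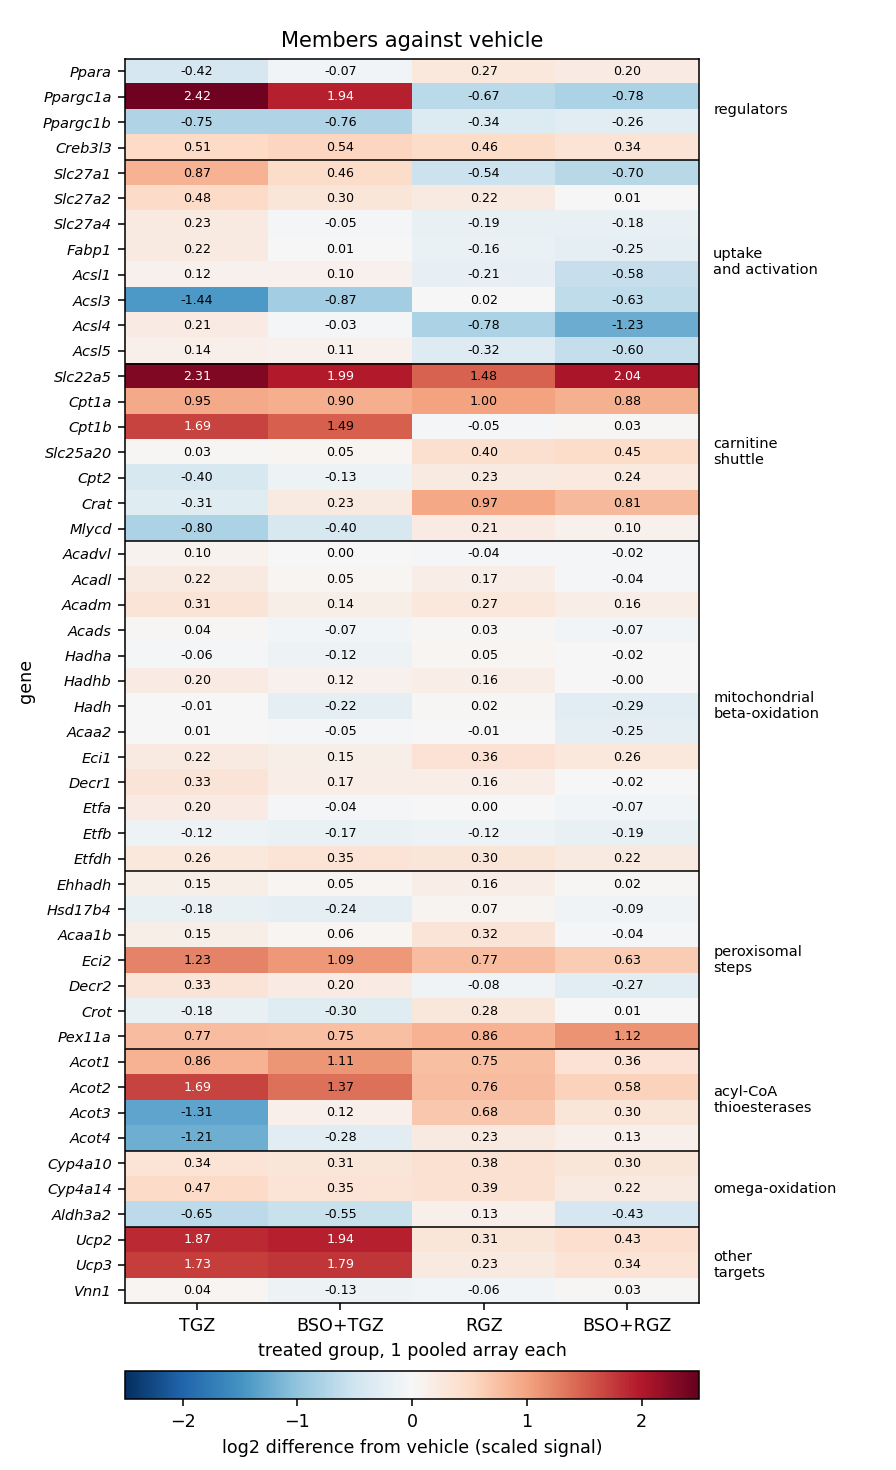
Log2 difference of scaled signal between each treated group and vehicle for the 49 genes, grouped by role, with 1 pooled array per group. Mitochondrial beta-oxidation stays pale in all 4 columns, while Ppargc1a, Cpt1b, Ucp2 and Ucp3 are strongly coloured with TGZ and BSO plus TGZ only among the 4 treated groups.

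With TGZ, 7 of the 49 genes were at least 2-fold higher than with vehicle (Ppargc1a, Slc22a5, Cpt1b, Eci2, Acot2, Ucp2 and Ucp3) and 3 at least 2-fold lower (Acsl3, Acot3 and Acot4). Of all genes with a value 19.6% were called, 10.1% higher and 9.48% lower, so the share among the 49 was near that of the whole array. With BSO plus TGZ 8 were higher (Ppargc1a, Slc22a5, Cpt1b, Eci2, Acot1, Acot2, Ucp2 and Ucp3) and 0 lower, against 8.31% and 5.9% of all genes (14.2% in all). RGZ gave 1 call, Slc22a5, where 3.32% of all genes were called, 1.65% higher and 1.67% lower. BSO plus RGZ gave 3, Slc22a5 and Pex11a higher and Acsl4 lower, where 6.83% of all genes were called, 3.05% higher and 3.78% lower. In all, 13 of the 49 genes differed from vehicle by 2-fold in at least 1 treated group, and 33 did not reach 2-fold in any of the 8 comparisons made. The shares of all genes for these joint counts are not given here, so whether the joint counts are unusual cannot be read from them. These counts rest on 1 probe per gene, the brightest. In 12 further pairs of a gene and a comparison, belonging to the 6 genes Ppargc1a, Acsl1, Acsl3, Eci2, Crot and Acot3, another probe well above background on both arrays passed 2-fold where the brightest did not.

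At a lower threshold of 1.5-fold, chosen after the values were seen, 8 genes were higher and 2 lower with RGZ, against 5.96% and 7.57% of all genes (13.5% in all). With BSO plus RGZ it gave 5 higher and 5 lower, against 9.83% and 12.9% (22.7% in all). With TGZ it gave 11 higher and 6 lower, against 18.5% and 18.9% (37.4% in all). For BSO plus TGZ the counts were 10 and 2, against 15.6% and 15.4% (31.1% in all). The median log2 difference of the 49 genes was 0.20 with TGZ, 0.10 with BSO plus TGZ, 0.17 with RGZ and 0.01 with BSO plus RGZ, beside a median over all genes of 0.01, -0.03, -0.03 and -0.05.

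How the arrays are put on a common scale shifts these small differences. Added spike-in RNA was 0.07, 0.07 and 0.08 brighter on the log2 scale with TGZ, BSO plus TGZ and RGZ than with vehicle and -0.08 with BSO plus RGZ, whereas the 75th percentile itself was 0.38 lower with TGZ than with vehicle. Scaling to the spike-in RNA moved the differences of the 49 genes from vehicle by -0.46 with TGZ, -0.19 with BSO plus TGZ, 0.09 with RGZ and 0.13 with BSO plus RGZ. For TGZ the median of the 49 genes then became -0.26 and that of all genes -0.44. For BSO plus TGZ these medians were -0.09 and -0.22. Relative to all genes the median of the 49 stood 0.18 higher with TGZ under both scalings, but 0.07 higher with normexp background correction, 0.04 with quantile normalization and -0.03 without the filter on dim genes. With spike-in scaling 6 genes were called higher and 6 lower with TGZ, in place of 7 and 3, and 6 and 1 with BSO plus TGZ, in place of 8 and 0. The shares of all genes called under that scaling are not given here, and the medians of all genes moved down as well. Differences with TGZ between 0 and 0.46 therefore change sign with the scaling, as did those of 21 of the 49 genes.

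**Figure D2:**
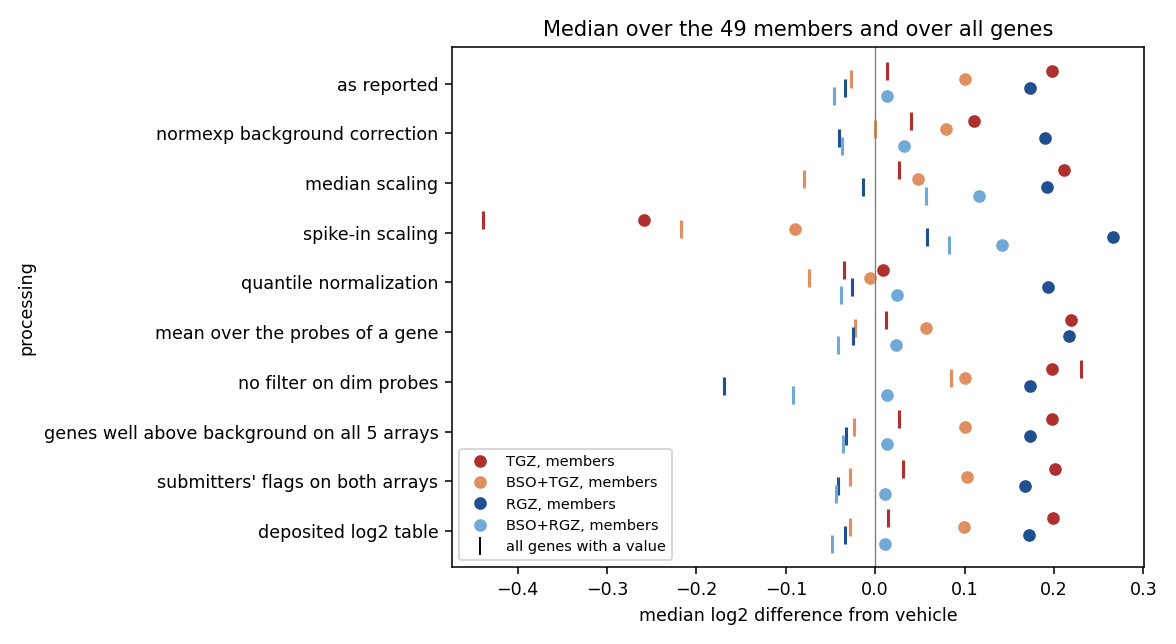
Median log2 difference from vehicle over the 49 genes (circles) and over all genes with a value (bars) for each treated group, under the reported processing and each alternative. Only spike-in scaling takes the TGZ median of the 49 genes below 0, to -0.26, and it takes the median of all genes to -0.44.

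Among the regulators, the coactivator gene Ppargc1a was the 1 gene past 2-fold. It encodes PGC-1 alpha, which drives genes of oxidation and of glucose production in the fasted liver. Its scaled signal was 2.55 with vehicle, 13.7 with TGZ, 9.80 with BSO plus TGZ, 1.599 with RGZ and 1.48 with BSO plus RGZ. Both TGZ arrays thus lay above vehicle and both RGZ arrays below it. Relative to vehicle the signal was 5.37 times as high with TGZ (interval 4.07 to 7.08) and 3.85 times with BSO plus TGZ (2.91 to 5.08), but 1.59-fold lower with RGZ (1.21 to 2.11) and 1.72-fold lower with BSO plus RGZ (1.30 to 2.27). A second probe of the gene gave a log2 difference of 2.36 with TGZ, beside 2.42 for the probe used, and -1.01 with RGZ, beside -0.67. The probe used lies on chromosome 5 at 51848928 to 51848987 (mm9, the build of the array's design).

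The gene of the receptor itself, Ppara, was at 47.0 with vehicle, 35.1 with TGZ, 44.8 with BSO plus TGZ, 56.6 with RGZ and 54.0 with BSO plus RGZ. It was 1.34-fold lower with TGZ than with vehicle (1.01 to 1.77), and the other 3 groups differed from vehicle by at most 1.20-fold, with intervals that include no difference. Ppargc1b, a relative of Ppargc1a that acts with PPAR and estrogen-related receptors, was at 2.72, 1.615, 1.605, 2.16 and 2.28 and so was lowest in both TGZ groups, with log2 differences of -0.75 and -0.76. Creb3l3, a membrane-bound transcription factor of the liver that works with PPAR alpha in fasting, was at 160.3, 227.6, 233.0, 220.5 and 203.6. All 4 treated arrays were above vehicle, by 0.34 to 0.54 on the log2 scale, which with spike-in scaling is 0.05 for TGZ.

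In uptake and activation no gene reached 2-fold above vehicle. Slc27a1, a fatty acid transporter with acyl-CoA synthetase activity, was at 2.67 with vehicle, 4.90 with TGZ, 3.68 with BSO plus TGZ, 1.83 with RGZ and 1.65 with BSO plus RGZ. It was above vehicle on both TGZ arrays and below it on both RGZ arrays, under 2-fold each time. Fabp1, the abundant fatty acid binding protein of liver and the gene with the closest DR1 match above, was at 1144, 1336, 1156, 1025 and 961.4, within 0.25 of vehicle on the log2 scale.

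The long-chain acyl-CoA synthetases differed from one another. Acsl1, the main enzyme of the family in liver, was at 145.3, 157.5, 155.8, 126.0 and 97.0, lowest with BSO plus RGZ. A second Acsl1 probe was not well above background with TGZ or BSO plus TGZ and stood at -1.29 for BSO plus RGZ over RGZ, beside -0.38. Another Acsl1 probe, well above background on all 5 arrays, passed 1.5-fold above vehicle with TGZ and BSO plus TGZ. Its log2 differences were 0.59 and 0.62, beside 0.12 and 0.10 for the probe used. Acsl3, which sits on lipid droplets and the endoplasmic reticulum, was at 1.18 with vehicle, 0.44 with TGZ, 0.64 with BSO plus TGZ, 1.19 with RGZ and 0.77 with BSO plus RGZ. That is 2.71-fold lower with TGZ (2.04 to 3.61) and level with vehicle for RGZ alone. With normexp background correction the TGZ difference was -0.95 on the log2 scale, under 2-fold. A second Acsl3 probe was not well above background with TGZ. It differed from vehicle by -1.17 with BSO plus TGZ, beside -0.87, and by -0.01 with BSO plus RGZ, beside -0.63.

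Acsl4 prefers arachidonic acid as its substrate. It was at 18.8, 21.7, 18.5, 11.0 and 8.02, so both RGZ arrays were below the other 3. The difference from vehicle was 1.72-fold lower with RGZ (1.30 to 2.27) and 2.35-fold lower with BSO plus RGZ (1.78 to 3.103). The 2 other probes of Acsl4 also showed it lower with BSO plus RGZ, at -0.997 and -0.92 on the log2 scale. Acsl5, Slc27a2 and Slc27a4 stayed within 2-fold of vehicle in every group, with Acsl5 lowest with BSO plus RGZ (-0.60) and Slc27a2 highest with TGZ (0.48).

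**Figure D3:**
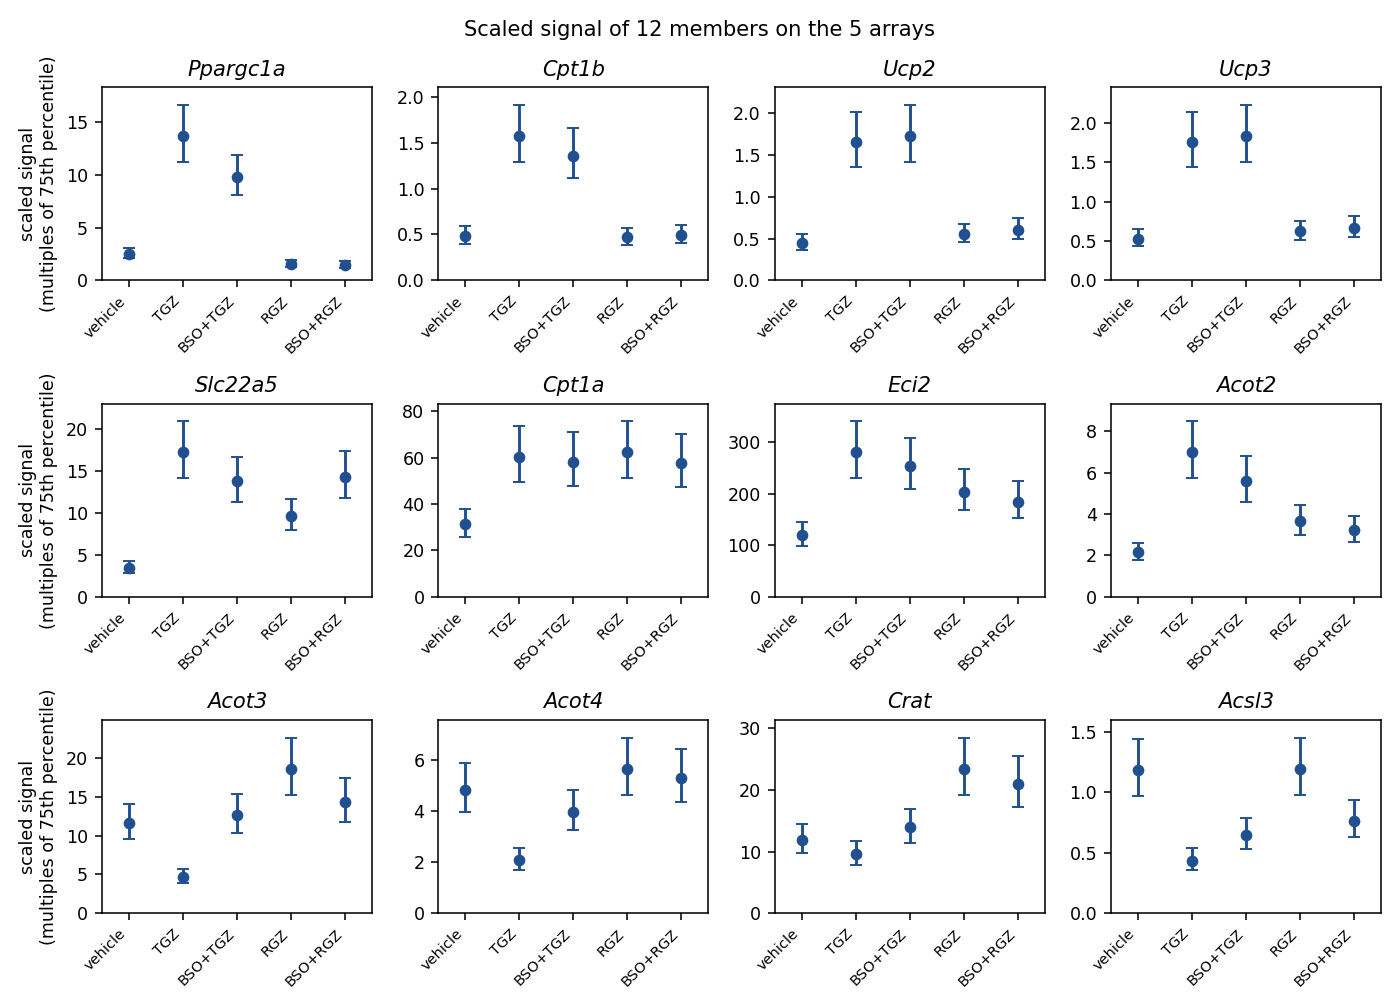
Scaled signal (multiples of the array's 75th percentile, linear axes from 0) of 12 genes on the 5 arrays, with bars for the 95% spot measurement error. Slc22a5 and Cpt1a are above vehicle in all 4 treated groups, Ppargc1a, Cpt1b, Ucp2 and Ucp3 in the TGZ groups, and Acot3 and Acot4 are low with TGZ alone.

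The carnitine shuttle held the 1 gene called in all 4 comparisons with vehicle. Slc22a5 encodes OCTN2, the transporter that brings carnitine into the cell. It was at 3.47 with vehicle, 17.2 with TGZ, 13.8 with BSO plus TGZ, 9.64 with RGZ and 14.3 with BSO plus RGZ. All 4 treated arrays were above vehicle, by 4.96-fold (3.76 to 6.55), 3.97-fold (3.01 to 5.24), 2.78-fold (2.11 to 3.67) and 4.12-fold (3.13 to 5.44). Its second probe gave the same directions in all 4, with log2 differences from 1.44 to 2.34.

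Cpt1a, the liver form of the enzyme that attaches long-chain fatty acids to carnitine and sets the pace of their entry into mitochondria, had similar values in all treated groups on the reported scale. Its scaled signal was 31.2 with vehicle, 60.4 with TGZ, 58.3 with BSO plus TGZ, 62.2 with RGZ and 57.5 with BSO plus RGZ. The folds above vehicle were 1.94 (1.47 to 2.56), 1.87 (1.42 to 2.47), 1.99 (1.51 to 2.63) and 1.84 (1.40 to 2.43), all just inside the threshold. With spike-in scaling the log2 differences spread to 0.50, 0.71, 1.09 and 1.01, which puts both RGZ groups past 2-fold. Its probe lies on chromosome 19 at 3385374 to 3385433 (mm9).

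Cpt1b, the form of the same enzyme known from muscle, followed TGZ only among the 4 treatments. It was at 0.48 with vehicle, 1.57 with TGZ, 1.36 with BSO plus TGZ, 0.47 with RGZ and 0.49 with BSO plus RGZ. The RGZ arrays were level with vehicle, and the difference was 3.24-fold higher with TGZ (2.44 to 4.30) and 2.80-fold with BSO plus TGZ (2.11 to 3.72). With normexp background correction the log2 differences were smaller, at 1.18 with TGZ and 1.03 with BSO plus TGZ, still past 2-fold. The annotation in the array files also ties this probe to a transcript of Gm44502, so part of the signal could come from that gene. The muscle markers Acta1, Ckm, Myh1 and Mb were not well above background on any array, and of the 4 other muscle markers none differed 2-fold from vehicle.

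The rest of the shuttle was lower with TGZ than with RGZ. Crat, which moves acetyl groups between carnitine and coenzyme A, was at 11.9, 9.62, 13.96, 23.4 and 20.9. It was 1.97-fold above vehicle with RGZ (1.49 to 2.59) and 1.76-fold with BSO plus RGZ (1.33 to 2.32), with the TGZ arrays on either side of vehicle. Mlycd breaks down malonyl-CoA, the inhibitor of carnitine palmitoyltransferase 1. It was at 68.4, 39.4, 51.7, 79.3 and 73.6, lowest with TGZ at 1.74-fold under vehicle (1.32 to 2.29). Cpt2, the enzyme on the inner mitochondrial membrane that undoes the carnitine ester, was at 100.1, 75.7, 91.7, 117.5 and 118.1, between -0.40 and 0.24 on the log2 scale from vehicle. Slc25a20, the carrier that exchanges carnitine for its esters, was within 0.45 of vehicle in every group.

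By their brightest probes and on the reported scale, none of the 13 genes of mitochondrial beta-oxidation differed by 1.5-fold in any of the 8 comparisons. Over all genes the share past 1.5-fold ran from 7.08% for BSO plus RGZ over RGZ to 37.4% for TGZ over vehicle. A second Etfdh probe passed 1.5-fold with TGZ (0.61), BSO plus TGZ (0.65) and RGZ (0.65), and 1 of the other Hadhb probes did so for TGZ over RGZ (-0.70). By the brightest probes and on the reported scale, the log2 differences ran from -0.31 for Hadh (BSO plus RGZ over RGZ) to 0.36 for Eci1 (RGZ over vehicle). The medians against vehicle were 0.20 with TGZ, 0.00 with BSO plus TGZ, 0.05 with RGZ and -0.02 with BSO plus RGZ. The acyl-CoA dehydrogenases take the first step, each for its chain length. Acadvl, for very long chains, was at 252.8, 270.4, 253.1, 245.4 and 248.5. Acadl, for long chains, was at 47.5, 55.2, 49.2, 53.5 and 46.1. Acadm, for medium chains and a textbook PPAR alpha target, was at 140.4, 174.4, 154.5, 169.0 and 156.8. All its treated arrays were above vehicle by at most 0.31 on the reported scale.

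Hadha, a subunit of the trifunctional protein that carries out the next steps on long chains, was at 5.23, 5.02, 4.80, 5.39 and 5.16. On the reported scale these 4 genes therefore varied less between the 5 groups than the spot error allows to resolve. A typical 95% interval on a difference is 0.40 wide on either side. The thiolase gene Acaa2, the isomerase and reductase genes Eci1 and Decr1 and the electron transfer flavoprotein genes Etfa, Etfb and Etfdh stayed in the same narrow range. With spike-in scaling all 13 moved down together by 0.46 with TGZ. For TGZ over RGZ, Eci1 (-0.69), Hadha (-0.65) and Etfdh (-0.59) then passed 1.5-fold, where the median over all genes was -0.47. Acadvl, Acadl and Acadm were at -0.41, -0.50 and -0.50 there.

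The peroxisomal genes were split between the enzymes of the core cycle and 2 genes beside it. Ehhadh, the bifunctional enzyme of the peroxisomal cycle and a classical marker of PPAR alpha activation in rodents, was at 49.1, 54.6, 50.9, 54.9 and 49.95. Acaa1b, a peroxisomal thiolase that responds to PPAR alpha, was at 151.2, 167.4, 157.2, 188.7 and 146.7. Hsd17b4, the second bifunctional enzyme, was at 123.9, 109.3, 105.1, 130 and 116.7. None of these 3 differed by more than 0.32 from vehicle on the log2 scale. Decr2, needed for unsaturated chains, ranged from -0.27 (BSO plus RGZ) to 0.33 (TGZ), and Crot, which makes carnitine esters of shortened chains, from -0.30 (BSO plus TGZ) to 0.28 (RGZ) by its brightest probe. The second Crot probe, well above background on all 5 arrays, stood at -2.98 with TGZ, -1.39 with BSO plus TGZ, 0.37 with RGZ and -0.35 with BSO plus RGZ, so the probes of this gene disagree.

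Eci2, an isomerase for unsaturated acyl-CoA found in peroxisomes and mitochondria, was at 119.3 with vehicle, 280.3 with TGZ, 253.7 with BSO plus TGZ, 204.0 with RGZ and 185.1 with BSO plus RGZ. All treated arrays were above vehicle, most with TGZ at 2.35-fold (1.78 to 3.099) and with BSO plus TGZ at 2.13-fold (1.61 to 2.80). The RGZ groups were 1.71-fold (1.29 to 2.25) and 1.55-fold higher (1.18 to 2.05). The 2 other probes of Eci2 gave larger log2 differences with TGZ, 2.02 and 1.35, while quantile normalization took the reported probe to 0.94 and spike-in scaling to 0.78, under 2-fold.

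Pex11a, a peroxisomal membrane protein that promotes division of the organelle, was at 52.9, 90.0, 89.0, 96.3 and 115.2. Each treated group was above vehicle, and the highest was BSO plus RGZ at 2.18-fold (1.65 to 2.87). The other folds were 1.70 with TGZ, 1.68 with BSO plus TGZ and 1.82 with RGZ. The intervals of the 4 folds overlap.

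The acyl-CoA thioesterases, which release free fatty acids from coenzyme A, lay on both sides of vehicle with TGZ, although their genes are neighbours. Their probes lie on chromosome 12 (mm9) in the order Acot2 (85334553 to 85334612), Acot1 (85358452 to 85358511), Acot4 (85384821 to 85384880) and Acot3 (85400452 to 85400511). The 4 genes are similar copies, so probes may take up RNA of a neighbour. Acot2, the mitochondrial enzyme, was at 2.16 with vehicle, 6.97 with TGZ, 5.59 with BSO plus TGZ, 3.66 with RGZ and 3.22 with BSO plus RGZ. It was above vehicle on all treated arrays, 3.23-fold with TGZ (2.45 to 4.27) and 2.59-fold with BSO plus TGZ (1.97 to 3.42).

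Acot1, the cytosolic enzyme, was at 38.4, 69.7, 82.5, 64.4 and 49.4, highest with BSO plus TGZ at 2.15-fold above vehicle (1.63 to 2.84). That call fell to 0.91 on the log2 scale with spike-in scaling. Acot3 and Acot4, both peroxisomal, were low on the TGZ array alone. Acot3 was at 11.6 with vehicle, 4.67 with TGZ, 12.6 with BSO plus TGZ, 18.6 with RGZ and 14.3 with BSO plus RGZ. Against vehicle it was 2.48-fold lower with TGZ (1.88 to 3.27) and 0.68 above it on the log2 scale with RGZ. A second Acot3 probe gave a log2 difference of -2.36 with TGZ, beside -1.31, so the probes shared the direction and not the size. Acot4 was at 4.82, 2.08, 3.96, 5.64 and 5.28, 2.32-fold lower with TGZ (1.75 to 3.06) and within 0.28 of vehicle on the other 3 arrays. Its second probe gave -1.43 with TGZ.

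Cyp4a10 and Cyp4a14, which start omega-oxidation, were slightly higher in every treated group on the reported scale. Cyp4a10, whose strong induction is a common sign of PPAR alpha activation in mouse liver, was at 69.4, 88.0, 86.0, 90.0 and 85.6, no more than 0.38 above vehicle on the log2 scale. Its probe is annotated to the related gene Cyp4a32 as well. Cyp4a14, a close relative, was at 3.43, 4.75, 4.37, 4.49 and 3.998, no more than 0.47 above vehicle. With spike-in scaling Cyp4a10 was at -0.11 with TGZ and Cyp4a14 at 0.01. Aldh3a2, which oxidises fatty aldehydes, was between -0.65 (TGZ) and 0.13 (RGZ).

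Ucp2 and Ucp3 encode mitochondrial carriers of the uncoupling protein family and lie side by side, with probes on chromosome 7 (mm9) at 107647809 to 107647868 and 107630399 to 107630458. Ucp2 was at 0.45 with vehicle, 1.65 with TGZ, 1.73 with BSO plus TGZ, 0.56 with RGZ and 0.61 with BSO plus RGZ. Ucp3, one of the genes with a DR1 match, was at 0.53, 1.76, 1.83, 0.62 and 0.67. For both genes the TGZ arrays stood apart from the other 3. Against vehicle Ucp2 was 3.66-fold higher with TGZ (2.76 to 4.86) and 3.83-fold with BSO plus TGZ (2.89 to 5.07), and Ucp3 3.32-fold (2.51 to 4.40) and 3.46-fold (2.61 to 4.58). With normexp background correction the log2 differences were smaller but past 2-fold, 1.35 and 1.44 for Ucp2 and 1.23 and 1.31 for Ucp3. The intervals do not cover the choice of background correction.

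Ucp2 is also known from immune cells, and some neutrophil markers were higher in each treated group. Of 8 neutrophil markers 4 were at least 2-fold higher with TGZ, 5 with BSO plus TGZ, 4 with RGZ and 4 with BSO plus RGZ, with medians of 2.18, 2.34, 0.88 and 0.84 on the log2 scale in that order. S100a8 was at 1.34, 25.0, 27.2, 4.41 and 5.99, and Ly6g was below vehicle on all 4 treated arrays. Elane was below vehicle with TGZ as well, at -0.10, and Csf3r was at 0.19. Of 8 markers of macrophages 1 was at least 2-fold higher in each treated group, Cd68 in both TGZ groups and Marco in both RGZ groups. Cd68 was at 1.99, 5.79, 5.46, 2.38 and 2.12, while the median of the list was -0.34 with TGZ. Of 8 fat cell markers, Ucp1 and Dio2 were not well above background on any array, Adipoq was so on 1, and Retn (as a bound) and Cfd were at least 2-fold higher with TGZ. The part of such cells in the values of Ucp2, Ucp3 and Cpt1b was not tested. Vnn1, a pantetheinase and a responsive PPAR alpha target in liver, was at 6.96, 7.18, 6.37, 6.66 and 7.10, level in all groups.

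The compounds were given at the same dose by mass and the same time, and 2 pairs of arrays compare them directly, TGZ with RGZ and BSO plus TGZ with BSO plus RGZ. Troglitazone is the heavier molecule, so equal mass is a smaller molar dose. TGZ over RGZ gave 5 genes higher (Ppargc1a, Slc27a1, Cpt1b, Ucp2 and Ucp3) and 5 lower (Acsl3, Crat, Mlycd, Acot3 and Acot4), where 17.6% of all genes were called (9.23% higher, 8.39% lower). With BSO in both groups 6 were higher, the same 5 and Acsl4, and 0 lower, where 13.6% of all genes were called (8.31% higher, 5.26% lower). At 1.5-fold the counts were 8 higher and 8 lower without BSO, against 19.4% and 17% of all genes (36.4% in all), and 10 and 0 with it, against 17.1% and 14% (31.1% in all). With spike-in scaling the first split was 3 higher and 9 lower, and Slc27a1 and Ucp3 fell under 2-fold. The median over all genes was then -0.47 for TGZ over RGZ, beside 0.06 on the reported scale, so the whole array moved down.

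Ppargc1a was 8.56-fold higher with TGZ than with RGZ (6.48 to 11.3) and 6.62-fold higher with BSO in both groups (5.01 to 8.74). Cpt1b differed by 3.35-fold (2.52 to 4.44) and 2.75-fold (2.07 to 3.64), Ucp2 by 2.96-fold and 2.84-fold, Ucp3 by 2.83-fold and 2.74-fold, and Slc27a1 by 2.67-fold and 2.23-fold. Normexp background correction gave smaller log2 differences. They were 1.26 and 1.00 for Cpt1b, 1.175 and 1.15 for Ucp2, 1.11 and 1.11 for Ucp3, and 1.16 and 0.99 for Slc27a1. The 5 genes higher with TGZ were thus higher in both pairs, which share no array. Acsl4 was 1.98-fold higher in the first pair (1.502 to 2.62) and 2.31-fold in the second (1.75 to 3.05).

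The 5 genes lower with TGZ than with RGZ differed less between the compounds when BSO was given, by their brightest probes. They were picked for passing 2-fold without BSO, which by itself favours smaller values in the other pair. Acot3 was 3.98-fold lower without BSO (3.01 to 5.25) and had a log2 difference of -0.18 with it. Acsl3 went from 2.74-fold lower (2.06 to 3.65) to -0.25 on the log2 scale, and Acot4 from 2.71-fold lower (2.05 to 3.58) to -0.42. Crat was 2.43-fold lower (1.85 to 3.21) and then -0.58, and Mlycd 2.01-fold lower (1.53 to 2.66) and then -0.51. With spike-in scaling the log2 differences with BSO were farther from 0. Those of Acot3, Acsl3 and Acot4 were -0.50, -0.57 and -0.74, beside -2.54, -2.00 and -1.99 without BSO. Those of Crat and Mlycd were -0.90 and -0.83, beside -1.83 and -1.56. The other probes of 3 of these genes differed. The second Acsl3 probe was at -1.16 with BSO, still past 2-fold. The second Crat probe went from -0.97 to -0.68 and that of Mlycd from -0.67 to -0.57, all under 2-fold. The second Crot probe was at -3.35 without BSO and -1.04 with it, against -0.46 and -0.31 for the probe used, and 1 of the other Eci2 probes was at 1.69 in both pairs, against 0.46 and 0.45. For Cpt1a TGZ over RGZ was 1.03-fold lower without BSO and 1.01-fold higher with it on the reported scale. The intervals were 0.78 to 1.36 and 0.77 to 1.34 around those folds, and with spike-in scaling the log2 differences were -0.59 and -0.30.

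**Figure D4:**
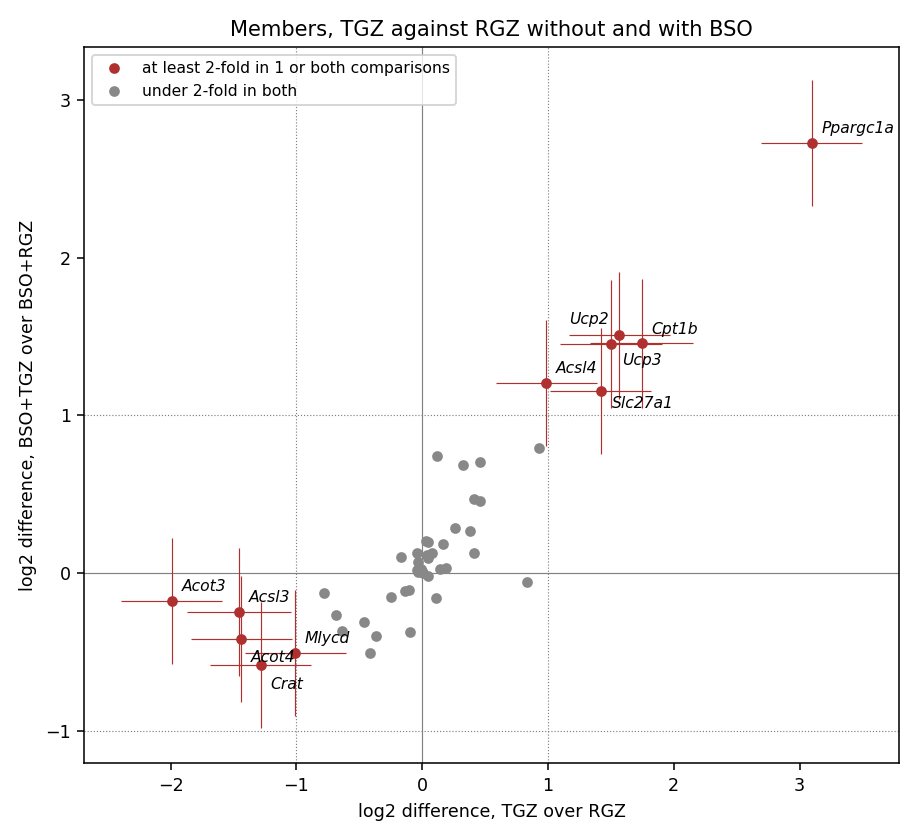
Log2 difference of TGZ over RGZ without BSO (horizontal) and with BSO in both groups (vertical) for the 49 genes, with 95% spot error bars for genes called in either and dotted lines at 2-fold. Ppargc1a is at 3.097 and 2.73, and the genes at the left, such as Acot3 at -1.99 and -0.18, lie closer to 0 on the vertical axis for the probes used.

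Adding BSO to TGZ gave 1 call among the 49 genes, Acot3, where 2.06% of all genes were called (1.56% higher, 0.494% lower). Acot3 was 2.70-fold higher with BSO plus TGZ than with TGZ (2.05 to 3.56), which put it at the level of vehicle. Its second probe showed 2.65 on the log2 scale, beside 1.43. The second Crot probe was at 1.59, beside -0.12 for the probe used. At 1.5-fold Acot4 joined it, with a log2 difference of 0.93, where 8.63% of all genes passed, 5.4% higher and 3.23% lower. Acsl3 and Crat followed at 0.57 and 0.54, and Ppargc1a was at -0.48. The peroxisomal genes were all slightly lower, from -0.14 to -0.02, and with spike-in scaling, which added 0.27 to every gene here, all slightly higher.

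Adding BSO to RGZ gave 0 calls, where 1.25% of all genes were called, 0.522% higher and 0.724% lower. With 1 array a group no test stands behind that count. At 1.5-fold Acsl3 alone was lower, at -0.64, where 7.08% of all genes passed, 2.97% higher and 4.11% lower. Its second probe showed 0.00 here, and with normexp background correction the first was at -0.51, under 1.5-fold. Slc22a5 was at 0.57, Aldh3a2 at -0.55 and Acot3 at -0.38. The 4 thioesterases were all lower with BSO here, from -0.38 to -0.10, while with TGZ 3 of the 4 were higher with BSO. Whether the effect of BSO on Acot3 or Acsl3 differed between the compounds was not tested, since no group has a second array.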

How the data were processed

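Liver RNA of 6 mice per group was pooled by the authors, labelled with Cy3 and put on 1 Agilent array per group. Per the file headers, the deposited processed signal is an intensity, background-subtracted and detrended by Feature Extraction 12.0.3.1. Log2 values in the deposited value table are that signal on the log2 scale with 1 constant added per array. Its column medians were 4.02, 4.01, 4.07, 4.00 and 3.92, and it is not centred per gene but scaled, with software not given in the sources used here. Compound names for the labels' abbreviations come from the title and general knowledge.

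Spots of a probe were averaged (56605 probes, 36870 gene names), log2 values taken and the array's 75th percentile of non-control probes subtracted. This percentile was between 141.5 and 208.4, 51.9% to 55.2% of probes were well above background, and no spot was saturated. The probe with the highest mean over all arrays stands for its gene. A gene has a value when well above background on at least 1 of the arrays compared, with the floor of a dim array as a bound. Differences carry the software's spot error. With 1 array per group nothing was tested. Calls are at 2-fold; 1.5-fold was added after seeing the data. The script was tested on simulated data. Named genes are those past 2-fold in any comparison, the 4 regulators and the best known gene of each step; pathway genes outside the 49 are named only if 2-fold from vehicle, at most 4 per list and comparison. Some of these are not reported here. Genes, lists and rules were chosen with earlier results of these data known. Probe positions are mm9 per the file headers, and were not annotated to exons. Python 3.11.15, numpy 2.4.6, pandas 2.3.3, R 4.3.3 and limma 3.58.1 (normexp offset 50) were used.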

Additional observations from a re-analysis of the deposited data

Results flagged for a closer look

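Ppargc1a and Acot3 stood on opposite sides of vehicle with TGZ and with RGZ, each by more than 1.5-fold. The log2 difference from vehicle of Ppargc1a was 2.42 with TGZ and -0.67 with RGZ. With BSO added to each compound it was again on opposite sides, at 1.94 and -0.78. Acot3 went the other way, at -1.31 with TGZ and 0.68 with RGZ. These differences between the compounds were not tested, since each group has 1 array and both compounds are compared with the same vehicle array.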

How the results depend on the processing

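The 9 alternatives planned were normexp background correction, scaling to the median, to spike-in RNA or by quantiles, the mean over probes, no filter, a filter on all 5 arrays, the submitters' flags and the deposited log2 table. Of 39 gene differences past 2-fold, 29 stayed past it under all 9 and 0 changed sign. Part of this was fixed in advance. Each of the 49 genes passes the background filter on every array, so dropping or tightening it cannot alter their differences. The submitters' flags can only remove a gene, and the deposited log2 table is the same signal with 1 constant added per array. Stability under these alternatives is therefore no evidence, and it also enters the counts and medians that follow. Of 116 alternative counts and medians 103 stayed within the limits set and 13 did not. A count could change by a factor of 1.5, and a median by less than the median spot error SD of 0.204. The reported medians against vehicle are no larger than that, so the limit on medians is wide. The TGZ median of 0.01 with quantile normalization, beside 0.20, counted as stayed. So did the BSO plus TGZ median of -0.09 with spike-in scaling, beside 0.10. The RGZ count against vehicle was 2 with median scaling, 2 with normexp, 3 with quantile normalization and 3 with spike-in scaling, in place of 1. Shares of all genes called under each alternative are not given here. The count for BSO added to TGZ was 2 with spike-in scaling, in place of 1, and the TGZ median of the 49 genes was -0.26. At the 1.5-fold threshold, added after the data were seen, the counts against vehicle were 17 (TGZ), 10 (RGZ) and 10 (BSO plus RGZ). They were 16 for TGZ over RGZ, 10 for BSO plus TGZ over BSO plus RGZ, 2 for BSO added to TGZ and 1 for BSO added to RGZ. The cause was not tested. Calls lost under 1 or 2 alternatives were those of Acot1 (BSO plus TGZ), Acsl3 and Eci2 against vehicle, and of Acsl3, Acsl4, Mlycd, Slc27a1 and Ucp3 between the compounds. No paired analysis was possible because each group has 1 array and no replicate numbers. The number of arrays, 1 per group, limits every value, and no alternative supplies variation between animals.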

Other observations

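Beyond the 49 genes, 85 further genes of the same pathways were listed and 84 were found on the array. Of 83 with a value, 10 were at least 2-fold higher and 7 lower with TGZ than with vehicle, and 10 and 4 with BSO plus TGZ. Over all genes the shares were 10.1% higher and 9.48% lower with TGZ, and 8.31% and 5.9% with BSO plus TGZ. Of 82 with a value in the RGZ comparisons, RGZ had 2 higher and 3 lower, where 1.65% and 1.67% of all genes were called. BSO plus RGZ had 2 higher and 5 lower, where the shares of all genes were 3.05% and 3.78%. The median log2 differences were -0.15, -0.09, -0.03 and -0.01. Of 27 targets and partners of PPAR alpha, a list drawn up with earlier results of these data known, 8 were higher and 1 lower with TGZ. Pdk4, the kinase that turns off pyruvate oxidation, was at 0.67 with vehicle, 63.7 with TGZ, 57.5 with BSO plus TGZ, 0.84 with RGZ and 1.32 with BSO plus RGZ. Lpin1, a phosphatidate phosphatase that also acts with PGC-1 alpha, was 2.30 higher on the log2 scale with TGZ and -0.26 with RGZ. Cidea, a lipid droplet protein, was dim with vehicle and had a lower bound of 3.77 on the log2 scale with TGZ. Fgf21, a fasting hormone of the liver, was at 0.83, 3.17, 4.10, 5.68 and 15.0, higher in all treated groups and highest with BSO plus RGZ. Plin2, which coats lipid droplets, was the other gene of this list called with RGZ, at 1.096. Rxrg, a partner receptor, was lower by 2.10 with TGZ.

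Among 24 peroxisomal genes outside the 49, the 3 genes Pex11g, Tysnd1 and Abcd2 were lower with TGZ, by 1.49, 1.42 and 1.22 on the log2 scale. With RGZ the 2 lower genes were Phyh, which starts the breakdown of phytanic acid, at -1.12, and Nudt7, which cleaves coenzyme A in peroxisomes, at -1.05. Of 20 genes listed around mitochondrial oxidation 0 were higher with TGZ and 2 lower. These were Acsm2, as a bound, and Acaca at -1.50, which encodes not a mitochondrial enzyme but the cytosolic carboxylase that makes malonyl-CoA for fatty acid synthesis. Of 6 ketone body genes only Slc16a1, a transporter of ketone bodies and lactate, was called with TGZ, at 1.54. Of 6 omega-oxidation genes with a value Cyp4b1 was lower with TGZ (-1.34), and Cyp4f14 (-1.48) and Cyp4a12a (-1.20) with BSO plus RGZ.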
